A study of Mus musculus with 8 samples.

Results

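The 10 genes described here encode the FOS and JUN subunits of the transcription factor AP-1 (Fos, Fosb, Fosl1, Fosl2, Jun, Junb and Jund), its stress-induced relative Atf3, and the immediate early genes Egr1 and Ier2. They were chosen by symbol, and all 10 of them were among the 36047 genes with a transcript in the annotation and among the 17997 genes that passed the expression filter. RNA was measured in muscle stem cells (MuSCs) of male Pax7-nTnG mice, 5 to 6 months old, fed a vitamin A-free diet (VA-free, 3 mice) or normal chow (CTRL, 2 mice) for 8 weeks. Both diets carried the same alleles, a tamoxifen-inducible Cre recombinase in the Pax7 gene and a Rosa26 reporter that turns from nuclear tdTomato to nuclear GFP, and received daily tamoxifen injections in the last week, so that GFP marks cells that expressed Pax7 at that time. GFP-positive cells of the quadriceps and gastrocnemius were sorted after enzymatic digestion at 37°C, and the RNA of a mouse was divided into technical libraries A and B at the purification column. The 8 libraries were 1B, 2A, 3A and 3B of the VA-free diet and 1A, 1B, 2A and 2B of CTRL, where the number is the mouse, and values are listed in this order throughout.

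Immediate early genes are transcribed within minutes of a stimulus, without new protein synthesis, when signalling kinases phosphorylate transcription factors already bound at their promoters. FOS proteins do not form stable dimers with each other and bind DNA as partners of a JUN protein through a leucine zipper. FOSB has a shorter splice form, ΔFosB, that lacks the C-terminal transactivation domain of the full-length protein. In quiescent MuSCs the same genes are known to be induced by the enzymatic digestion that frees the cells from muscle, so their level in sorted cells includes what happened between dissection and lysis, and the diet difference before dissection and the response to dissection cannot be told apart in these data.

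Fos and Fosb are shown first, because they were the most abundant FOS genes and differed between the diets in opposite directions. Their promoters, from RefSeq on GRCm38.p6, run from 250 bases before to 50 bases after the start site, at chr12:85473640-85473939 on the plus strand for Fos and chr7:19309996-19310295 on the minus strand for Fosb. Capitals mark the TATA box (TATAAA) and the GC box (GGGCGG, a site for SP-type factors), searched on both strands.
Fos promoter: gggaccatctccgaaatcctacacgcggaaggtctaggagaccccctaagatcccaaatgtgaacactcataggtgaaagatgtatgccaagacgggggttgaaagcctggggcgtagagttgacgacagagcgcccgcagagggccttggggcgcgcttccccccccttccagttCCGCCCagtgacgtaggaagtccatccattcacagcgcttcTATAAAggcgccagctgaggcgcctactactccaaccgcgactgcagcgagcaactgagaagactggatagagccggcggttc
Fosb promoter: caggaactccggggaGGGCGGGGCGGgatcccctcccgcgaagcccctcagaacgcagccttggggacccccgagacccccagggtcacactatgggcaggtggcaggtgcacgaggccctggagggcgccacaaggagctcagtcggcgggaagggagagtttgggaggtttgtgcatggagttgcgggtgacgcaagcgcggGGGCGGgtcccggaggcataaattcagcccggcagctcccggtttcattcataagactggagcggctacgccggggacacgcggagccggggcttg
The Fos promoter held 1 TATAAA and 1 GC box, and the Fosb promoter held 3 GC boxes, of which 2 lay next to each other, and no TATAAA. RefSeq promoters were available here for 7 genes (Fos, Fosb, Fosl2, Jun, Junb, Jund and Atf3). Of these, Fos and Junb held the letters TATAAA, against 13.6% of 32851 promoters of the same length. The match began at base -33 from the start site in Fos. In Junb it began at base 1, at the start site rather than upstream of it. A GC box was held by 5 of the 7 (Fos, Fosb, Fosl2, Jun and Atf3), against 35.7%. None of the 7 held the AP-1 site TGANTCA (7.81% of all promoters) or the cAMP response element TGACGTCA (1.79%) in this window. Nor did any hold the CArG box (1.63%) or the ETS core CCGGAA (14.9%). Only exact matches were counted, so a near match such as tgacgtag in the Fos promoter was left out. Absence here does not mean that a promoter lacks sites of these kinds.

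The splice forms of Fosb differ by a stretch of 140 bases in the coding part of the last exon, which is shown here. The division of the Fosb counts between forms rests in part on it, and also on other differences between the transcripts given below. The stretch lies at chr7:19305007-19305146 on the minus strand of GRCm38 and was read from the GENCODE M21 transcript Fosb-201. The sequence below runs from chr7:19304987-19305166, with the 140 bases in capitals and 20 retained bases on either side in lower case.
Fosb-201: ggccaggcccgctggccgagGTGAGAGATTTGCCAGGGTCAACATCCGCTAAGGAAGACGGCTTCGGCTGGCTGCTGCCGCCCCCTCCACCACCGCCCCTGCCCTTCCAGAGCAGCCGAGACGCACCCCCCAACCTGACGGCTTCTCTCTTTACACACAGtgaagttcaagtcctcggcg
Fosb-201, the full-length form, codes for 338 residues. Fosb-206 and Fosb-207 splice these 140 bases out. Fosb-206 codes for 237 residues, which is the ΔFosB form, and Fosb-207 also skips an exon of 108 bases (chr7:19306559-19306666) and codes for 201 residues.

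The libraries held between 44831232 and 88650428 estimated counts, and the 10 genes took between 2.63% and 3.05% of the gene counts in 7 libraries and 1.85% in CTRL 2A. Each of the 10 genes had at least 2412 estimated counts in every library. All MuSC markers on a list of 12 were expressed, and 10 of them were higher on the VA-free diet, with a summed level of 6720 to 7353 normalised counts scaled to a library of 1000000 (CPM) in the VA-free libraries and 2812 to 4454 CPM in the CTRL libraries. Markers of other cells went the other way. Beside these counts, the edgeR test described below called 18.9% of all genes tested higher and 22.5% lower. All 12 endothelial markers were lower on the VA-free diet (summed 258 to 352 CPM against 1346 to 3388 CPM), as were 8 of 8 Schwann cell markers (38.6 to 48.6 CPM against 314 to 650 CPM), 6 of 7 tenocyte markers (43.9 to 71 CPM against 669 to 1180 CPM), 7 of 10 fibro-adipogenic progenitor markers (6461 to 7493 CPM against 7788 to 8822 CPM), 5 of 12 macrophage and monocyte markers (24.6 to 159 CPM against 200 to 961 CPM) and 5 of 9 pericyte and smooth muscle markers, of which 1 was higher (1733 to 2019 CPM against 2738 to 3353 CPM). The fibro-adipogenic sum was mostly Gsn, which did not pass (5918 ± 566 CPM on the VA-free diet against 5206 ± 187 CPM). The median log2 fold change of the fibro-adipogenic list was -3.09. The pericyte and smooth muscle marker that rose was Notch3 (861 ± 136 CPM against 125 ± 12.7 CPM), which made up a large part of the VA-free sum of that list. Of 12 myofiber markers, 6 were lower (342 to 438 CPM against 506 to 635 CPM). Of all these markers, Ackr1, Cdh19 and Kera were at 0 in at least 1 VA-free library. The part of these cells in the values below was not tested. In sorted pools, fewer cells of a type and less RNA per cell cannot be told apart.

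Of the 10 genes, 4 rose on the VA-free diet (Fosb, Fosl1, Fosl2 and Egr1), 1 fell (Fos) and 5 did not pass the test (Jun, Junb, Jund, Atf3 and Ier2), by edgeR's quasi-likelihood test over 5 mice with a Benjamini-Hochberg adjusted p under 0.05. The same test called 41.4% of all 17997 genes, 18.9% of them as higher and 22.5% as lower, so the count of 5 in 10 was near the background. The median log2 fold change was 0.16 for the 10 genes and 0.003 for all genes tested. The VA-free and CTRL libraries did not overlap for 5 of the 10 genes, 3 with the VA-free libraries above (Fosb, Fosl1 and Egr1) and 2 with them below (Fos and Ier2), against 19.8% and 21.5% of all genes and 41.3% in all. By mice, 6 of the 10 genes did not overlap, against 63.3% of all genes. Library CTRL 2A was the lowest CTRL library for 9 of the genes, and without it Fosb, Fosl1 and Egr1 (higher) and Fos (lower) still passed, Fosl2 no longer passed and Ier2 passed as lower. The p-values measure the spread between 3 and 2 mice, and without library CTRL 2B, which leaves CTRL 2A alone for that mouse, 0 of the 10 genes and 4476 of all genes passed.

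**Figure D1:**
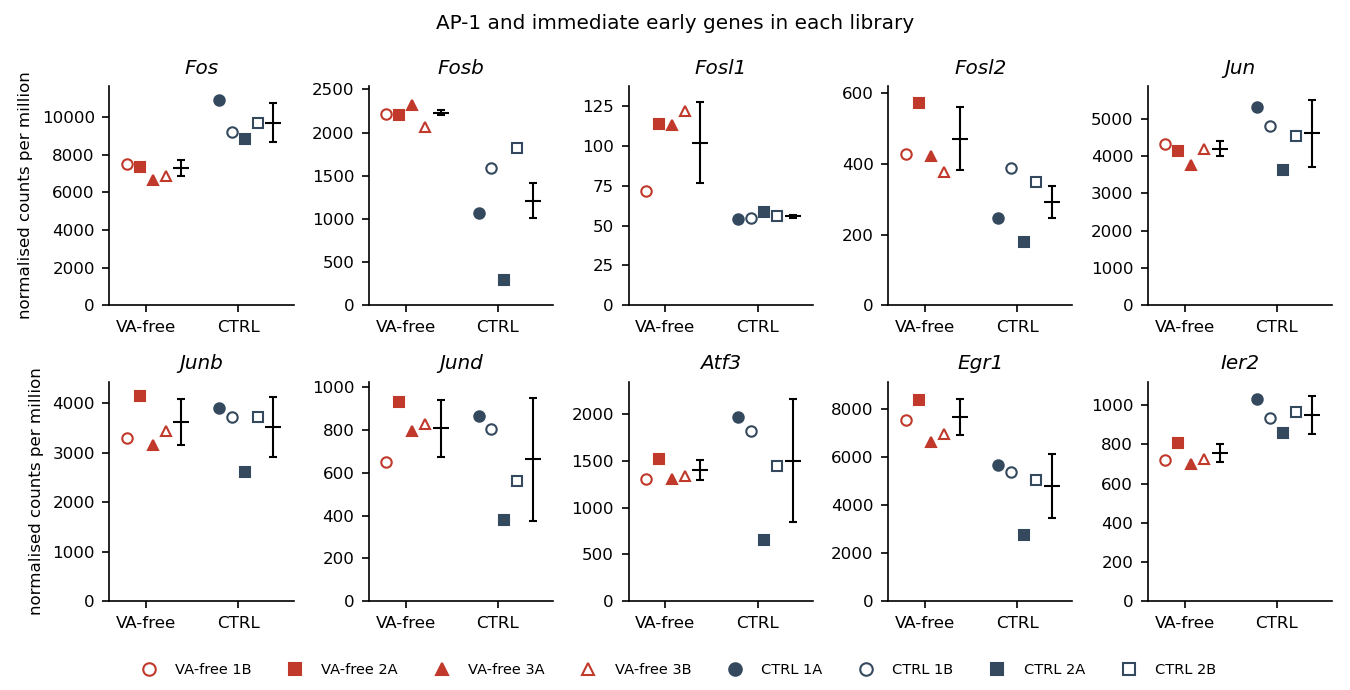
TMM-normalized CPM of each gene (y axis, from 0) in the 4 VA-free libraries (red) and the 4 CTRL libraries (dark blue). Circles, squares and triangles are mice 1, 2 and 3, filled symbols are technical libraries A and open symbols B, and the black bar is the mean ± SD over mice (n = 3 and n = 2). The VA-free libraries lie below the CTRL libraries for Fos and Ier2 and above them for Fosb, Fosl1 and Egr1, and CTRL 2A is the low square in most panels.

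Fos encodes the founding FOS subunit and was the most abundant of the 10 genes per length on both diets. It lies on chromosome 12 (85473890-85477273, plus strand). Its level was 7507, 7322, 6682 and 6873 CPM across the VA-free libraries and 10888, 9199, 8848 and 9673 CPM across the CTRL libraries. Every VA-free library was thus below every CTRL library. Over mice it was 7296 ± 408 CPM (SD, n = 3, VA-free) and 9711 ± 1037 CPM (SD, n = 2, CTRL). The log2 fold change was -0.41 (SE 0.13, edgeR adjusted p = 0.0441). The fall was close to the threshold and was lost when any 1 of the 3 VA-free mice was left out (edgeR adjusted p = 0.0935, 0.137 and 0.174 without VA-free 1, 2 and 3), without CTRL 1 (adjusted p = 0.0849), without library CTRL 1A (adjusted p = 0.0851) and without CTRL 2B (adjusted p = 0.178), with log2 fold changes from -0.45 to -0.30. On the TPM scale, which divides by transcript length and raised the median of all genes by 0.19, the fold change of Fos was 0.0015, or -0.19 relative to that median. It was -0.24 (edgeR adjusted p = 0.228) after the gene length trend was removed. Fos-201, the coding transcript, held 86.5% to 90% of the counts, and the noncoding Fos-202 held 8.2% to 11.4%, with overlap between the diets.

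Fosb, the other strongly expressed FOS gene (chromosome 7, 19302696-19310051, minus strand), rose. Its level was 2214, 2202, 2317 and 2069 CPM across the VA-free libraries. In the CTRL libraries it was 1072, 1588, 297 and 1821 CPM in the same order. The VA-free libraries lay close together and above every CTRL library, and the CTRL libraries spread widely, also between A and B of one mouse. Over mice the level was 2229 ± 31 CPM (SD, n = 3) against 1212 ± 207 CPM (SD, n = 2). The log2 fold change was 0.88 (SE 0.14, edgeR adjusted p = 0.00326). Without CTRL 2A the fold change was 0.49 and still passed (edgeR adjusted p = 0.0325), and without CTRL 2B it was 1.41 and did not (edgeR adjusted p = 0.146). It passed when any 1 of the 5 mice was left out. It did not pass with 1 library per mouse, which keeps CTRL 2A alone for its mouse (1.71, edgeR adjusted p = 0.0674), or with DESeq2 on the 8 libraries (0.88, adjusted p = 0.106).

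Fosl1 and Fosl2 encode FRA-1 and FRA-2, FOS relatives without a transactivation domain of the FOS type that usually appear later after a stimulus than FOS itself. They lie on chromosome 19 (5447547-5455946) and chromosome 5 (32135801-32157842), both on the plus strand. Both rose, at levels far below Fos. Fosl1 had 71.5, 114, 113 and 122 CPM across the VA-free libraries and 54.4, 54.7, 58.3 and 55.8 CPM across the CTRL libraries. The CTRL libraries differed little, the VA-free libraries lay above them, and VA-free 1B was nearest to them. On the log2 scale the difference of Fosl1 was 0.88 (SE 0.22, edgeR adjusted p = 0.0171). It was lost without VA-free 2 (edgeR adjusted p = 0.0507), VA-free 3 (adjusted p = 0.0516), CTRL 1 (adjusted p = 0.0555), CTRL 2 (adjusted p = 0.0667) and CTRL 2B (adjusted p = 0.0717), at fold changes between 0.75 and 0.89. The span of the Fosl1 gene overlaps that of Ccdc85b on the opposite strand, and the library kit keeps no strand. Reads of the overlap cannot be told apart, and whether it lies in exons of Fosl1 was not examined. Fosl2 had 429, 572, 422 and 377 CPM across the VA-free libraries and 247, 388, 180 and 348 CPM across the CTRL libraries. VA-free 3B was below CTRL 1B, so its libraries overlapped although its mice did not. The log2 fold change of Fosl2 was 0.69 (SE 0.19, edgeR adjusted p = 0.0243). It was lost without VA-free 1 (edgeR adjusted p = 0.0534), VA-free 2 (adjusted p = 0.0592), CTRL 2 (adjusted p = 0.102), CTRL 1A (adjusted p = 0.141), CTRL 2A (adjusted p = 0.0528) and CTRL 2B (adjusted p = 0.0915), and its value fell to 0.08 once trends with gene length were taken out of each mouse.

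The estimated division of Fosb between its splice forms also varied. Forms without the 140 bases shown above (Fosb-206 and Fosb-207) held 28.4%, 32.6%, 39.7% and 40.8% of the Fosb counts across the VA-free libraries and 46.3%, 37.6%, 72.1% and 41.5% across the CTRL libraries. The libraries of the diets overlapped. By mouse the shares were 28.4%, 32.6% and 40.3% on the VA-free diet and 41.4% and 45.4% on the control diet, which did not overlap but nearly met at VA-free 3 and CTRL 1. ΔFosB itself, Fosb-206, held between 21.5% and 27.7% in 7 libraries, with overlap between the diets, and was estimated at 0% in CTRL 2A. In that library Fosb-207 took 72.1%, whereas it held 4.38% to 24.8% in the others. These shares are abundance estimates and were not tested. Fosb-206 is annotated with 1090 bases and without the long last-exon end that Fosb-201 (3782 bases) and Fosb-207 (3523 bases) share, so reads from that end were assigned to the longer models, whichever form they came from.

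**Figure D2:**
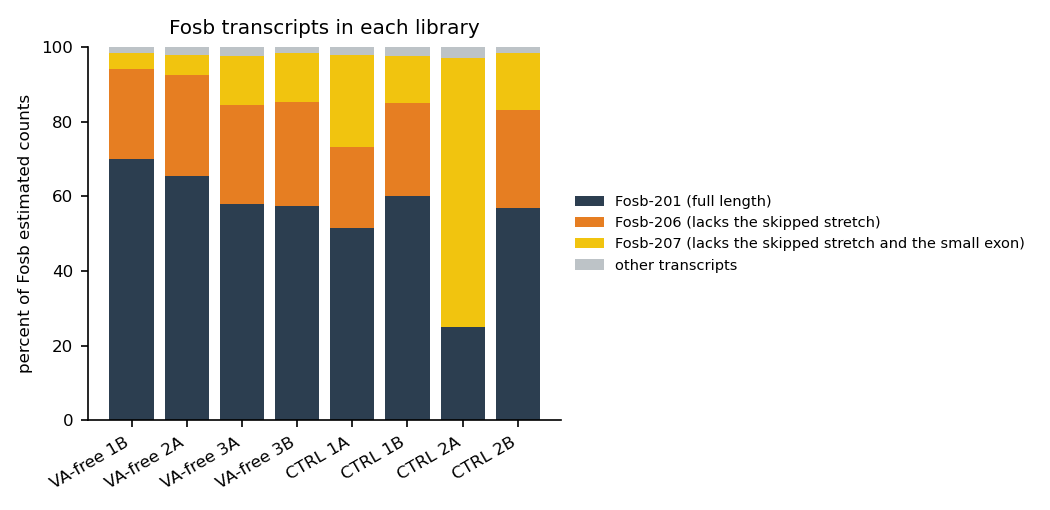
Percent of the Fosb estimated counts of each library (y axis, stacked to 100) on the full-length Fosb-201, on Fosb-206 and Fosb-207, which lack the 140 bases, and on the other annotated transcripts. Fosb-201 holds 51.6% to 70.1% in every library except CTRL 2A, where it holds 24.9% and Fosb-207 72.1%.

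The JUN genes did not pass the test. They are genes without introns in their main transcripts, Jun on chromosome 4 (95049034-95052222, minus strand), Junb on chromosome 8 (84974484-84978718, minus strand) and Jund on the same chromosome (70698949-70700616, plus strand). Jun, the founding JUN subunit and a target of the JNK kinases, had 4316, 4118, 3769 and 4195 CPM across the VA-free libraries and 5297, 4800, 3626 and 4542 CPM across the CTRL libraries. Only CTRL 2A fell among or below the VA-free libraries. Its log2 fold change was -0.13 (SE 0.15, edgeR adjusted p = 0.527), and it passed in 1 of the 23 alternatives, at -0.52 after the gene length trend was removed, while on the TPM scale it was 0.31. Junb, a JUN protein with weaker transactivation than JUN itself, had 3296, 4145, 3146 and 3446 CPM on the VA-free diet and 3905, 3727, 2603 and 3730 CPM on the control diet, in the same order of libraries. The diets overlapped, and the log2 fold change was 0.04 (SE 0.17, edgeR adjusted p = 0.869). The span of the Junb gene overlaps that of Prdx2 on the opposite strand. Whether the overlap reaches Junb-201, which held 99.9% to 100% of the Junb counts, was not examined. Jund, the JUN gene known for steady expression in resting cells, had 652, 932, 795 and 827 CPM and 864, 803, 379 and 562 CPM. Here the libraries of mouse CTRL 2 were the low ones and those of CTRL 1 lay among the VA-free libraries. For Jund the log2 fold change was 0.29 (SE 0.28, edgeR adjusted p = 0.452). It was 0.81 without CTRL 1 (edgeR adjusted p = 0.024) and -0.10 without CTRL 2 (adjusted p = 0.716), so its direction depended on which control mouse was kept.

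Atf3, a stress-induced bZIP factor that dimerizes with JUN proteins, showed the same dependence. It lies on chromosome 1 (191170296-191218039, minus strand). Its level was 1306, 1521, 1310 and 1337 CPM across the VA-free libraries and 1972, 1827, 656 and 1446 CPM across the CTRL libraries. The VA-free libraries lay between the control mice, above CTRL 2A, around CTRL 2B and below both libraries of CTRL 1. The log2 fold change was -0.10 (SE 0.26, edgeR adjusted p = 0.783), but 0.43 without CTRL 1 (edgeR adjusted p = 0.0444) and -0.50 without CTRL 2 (adjusted p = 0.0274).

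Egr1 encodes a zinc finger factor that is induced through SRF and ELK factors like Fos. It lies on chromosome 18 (34859823-34864984, plus strand). Its level was 7561, 8358, 6638 and 6951 CPM across the VA-free libraries and 5684, 5367, 2744 and 5051 CPM across the CTRL libraries. The VA-free libraries were all above the CTRL libraries, of which CTRL 2A was the lowest. Over mice it was 7667 ± 748 CPM (SD, n = 3) against 4778 ± 1338 CPM (SD, n = 2). The log2 fold change was 0.68 (SE 0.20, edgeR adjusted p = 0.0313). The rise was 0.51 without CTRL 2A (edgeR adjusted p = 0.0184) and was lost without any 1 of the VA-free mice 1, 2 and 3 (adjusted p = 0.0861, 0.0974 and 0.0588), without CTRL 2 (0.42, adjusted p = 0.0775) and without CTRL 2B (0.84, adjusted p = 0.137). It was 0.33 (edgeR adjusted p = 0.247) after the gene length trend was removed.

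Ier2, a short single-exon gene for a nuclear protein induced by growth factors, lies on chromosome 8 (84661331-84662852, minus strand) and had its lower values, like Fos, in the VA-free libraries. It had 722, 806, 700 and 728 CPM in the VA-free libraries and 1033, 934, 857 and 964 CPM in the CTRL libraries. No library of one diet reached the other, but the log2 fold change of -0.33 (SE 0.13, edgeR adjusted p = 0.0745) did not pass the threshold. It passed without CTRL 2A (-0.39, edgeR adjusted p = 0.0229) and without CTRL 2 (-0.44, adjusted p = 0.0318), and DESeq2 on the mouse sums gave an adjusted p of 0.0299. It did not pass in 19 of the 23 alternatives, and was -0.09 (edgeR adjusted p = 0.652) after the gene length trend was removed and 0.11 on the TPM scale.

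**Figure D3:**
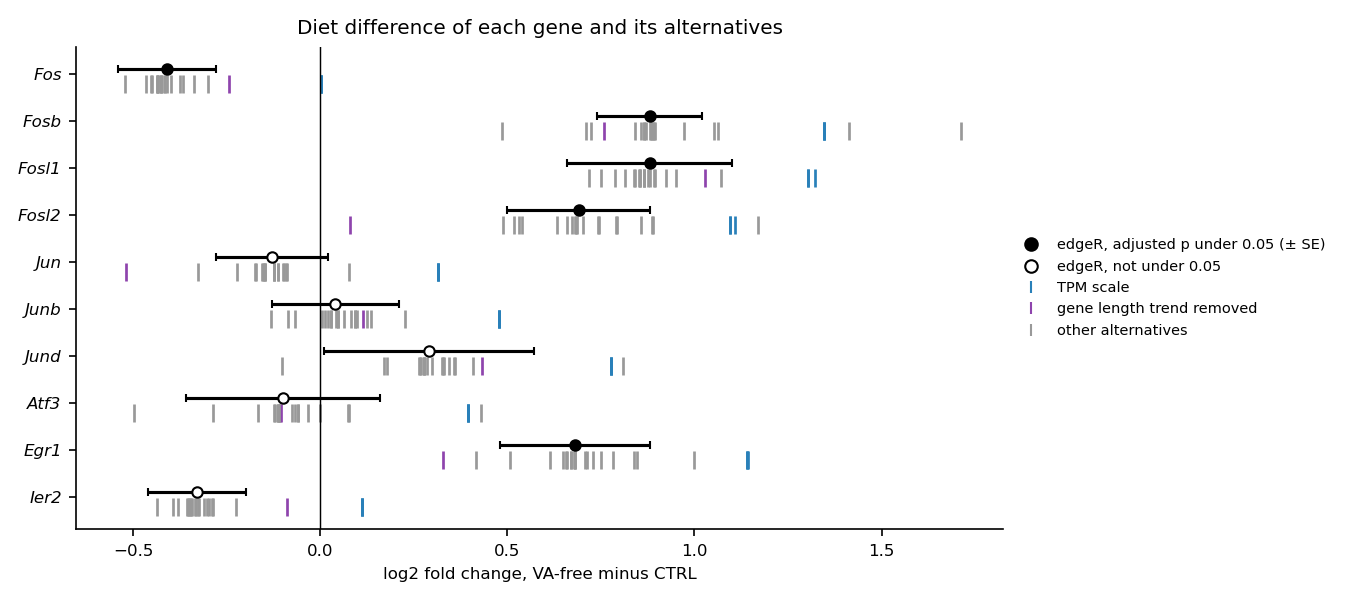
Log2 fold change of each gene, VA-free minus CTRL (x axis), from edgeR over 5 mice with its standard error (circles, filled where the adjusted p was under 0.05) and, under each circle, the values of the 23 alternatives (ticks, with the TPM scale in blue and removal of the gene length trend in purple). Fosb, Fosl1, Fosl2 and Egr1 stay above 0 in every alternative, Fos stays below 0 except on the TPM scale, where it is 0.0015, and the alternatives of Jun, Junb, Jund, Atf3 and Ier2 lie on both sides of 0.

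Ratios within a library do not depend on the normalization between libraries, but they still carry any trend with gene length. After that trend was removed, the log2 fold changes were 0.76 for Fosb, 0.33 for Egr1 and -0.24 for Fos. The ratios below combine the rises of Fosb and Egr1 with the fall of Fos given above. These ratios were computed after the levels had been seen and were not tested. Per 100 estimated counts of Fos, Fosb had 29.5, 30.1, 34.7 and 30.1 counts across the VA-free libraries and 9.85, 17.3, 3.35 and 18.8 counts across the CTRL libraries. Egr1 had 101, 114, 99.3 and 101 counts per 100 of Fos in the VA-free libraries and 52.2, 58.3, 31 and 52.2 counts in the CTRL libraries. For both genes the libraries of the diets were separate, with CTRL 2A lowest. Ier2 had 9.62 to 11 counts per 100 of Fos on the VA-free diet and 9.49 to 10.2 counts on the control diet, and these ranges overlapped.

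**Figure D4:**
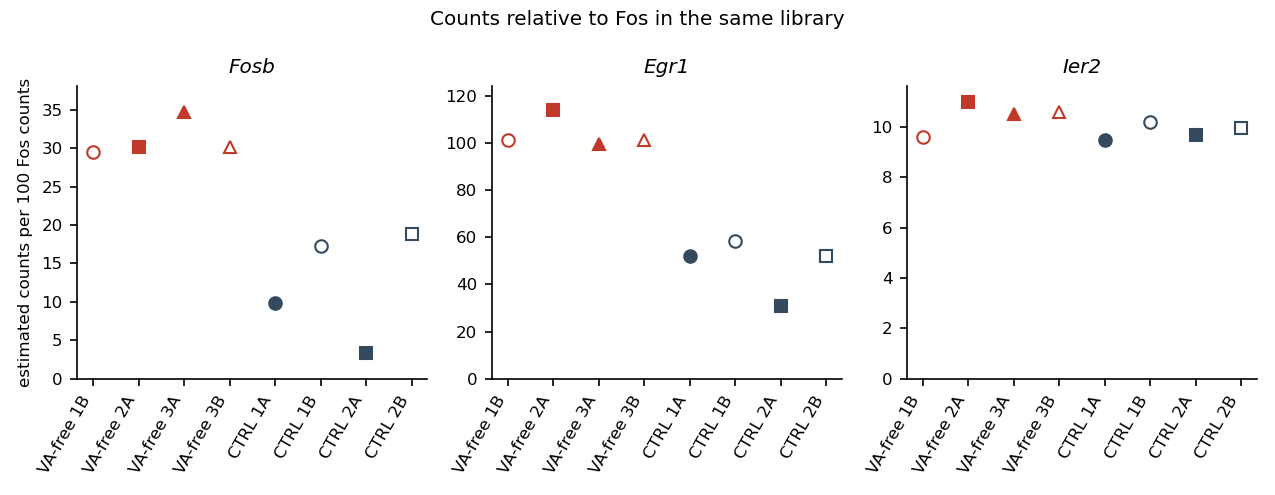
Estimated counts of Fosb, Egr1 and Ier2 per 100 estimated counts of Fos in the same library (y axis, from 0), for the 4 VA-free libraries (red) and 4 CTRL libraries (dark blue), with symbols by mouse. Fosb stands at 29.5 to 34.7 against 3.35 to 18.8, Egr1 at 99.3 to 114 against 31 to 58.3, and Ier2 at about the same ratio in all 8 libraries.

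Per length, in TPM, which divides counts by effective transcript length and scales each library to the same total, Fos was at 7317 to 9192 in the VA-free libraries and 6664 to 9309 in the CTRL libraries. It ranked 3rd among all genes in each VA-free library and between 6th and 10th in the CTRL libraries. On the VA-free diet the order of the mean TPM was Fos, Egr1, Junb, Jun, Fosb, Atf3, Ier2, Jund, Fosl2 and Fosl1. Neighbours whose ranges overlapped there were Egr1 (3961 to 5033 TPM) and Junb (3244 to 4310 TPM), Ier2 and Jund, and Fosl2 and Fosl1. On the control diet the order was Fos, Junb, Egr1, Jun, Atf3, Ier2, Fosb, Jund, Fosl2 and Fosl1, and with CTRL 2A included Fos stood clear of Junb, Jun (1376 to 2255 TPM) narrowly of Atf3 (406 to 1372 TPM), and Jund of Fosl2 (33.5 to 82.9 TPM), while the other neighbours overlapped down to Fosl1. Egr1 was above Junb in each of the 4 VA-free libraries and below it in each of the 4 CTRL libraries. Fosb moved from 5th on the VA-free diet to 7th on the control diet, at 1735 to 1914 TPM against 99.8 to 1228 TPM. Within the FOS genes, Fosb made up 16.5% to 20.2% of the summed TPM of Fos, Fosb, Fosl1 and Fosl2 on the VA-free diet and 1.46% to 11.5% on the control diet. Within the JUN genes the ranges of the diets overlapped, with Junb at 51.5% to 55.7% and 50.1% to 54.3%, Jun at 30.7% to 37.5% and 36.7% to 40.1%, and Jund at 11.1% to 14.2% and 8.2% to 12.1%. These are descriptions of the deposited TPM values and no test was run on them.

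Technical libraries A and B of a mouse show how far a gene can move with no change of animal. On log2(CPM + 1), the median absolute difference over the 10 genes was 0.08 for VA-free 3, 0.13 for CTRL 1 and 0.54 for CTRL 2, beside 0.11, 0.22 and 0.47 over all genes tested. Between CTRL 2A and 2B, Fosb differed by 2.61, more than 98.7% of all genes, followed by Atf3 at 1.14, Fosl2 at 0.95 and Egr1 at 0.88. In the same pair Fos differed by 0.13 and Ier2 by 0.17. Of the 10 genes, 9 were higher in CTRL 2B than in CTRL 2A, and Fosl1 differed by -0.06. Between CTRL 1A and 1B the largest differences were again those of Fosl2 (0.65) and Fosb (0.57).

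The genes whose level followed Fos most closely over the 8 libraries, out of 9549 genes at or above 10 CPM on average, were Use1 (Pearson's r = 0.991), Zfp326 (0.977), Alkbh7 (0.976), Bnip1 (0.973) and Mgll (0.972), none of them an AP-1 gene. Ier2 came 15th (r = 0.965). Of the other 8 genes, Jun (r = 0.675), Atf3 (0.231) and Junb (0.206) were above 0, and Jund (-0.242), Fosb (-0.468), Egr1 (-0.508), Fosl2 (-0.593) and Fosl1 (-0.902) below. The libraries share animals and diets, and 489 genes had an r above 0.9, so these values are a description.

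Some other bZIP proteins can replace FOS or JUN in the dimer, and others, such as BACH2, pair with small MAF proteins. Of 14 genes of both kinds, 6 rose (Mafk, Jdp2, Mafg, Atf2, Atf7 and Bach2), 1 fell (Batf) and 7 did not pass. Their median log2 fold change was 0.48. Beside the 18.9% of all genes called higher and 22.5% called lower, the number called in all was near the background. Mafk, a small MAF protein, was at 1145 ± 150 CPM (SD, n = 3) against 631 ± 45.5 CPM (SD, n = 2). Jdp2, a JUN partner that represses AP-1 sites, was at 76.4 ± 11.9 CPM against 31.6 ± 1.13 CPM, a log2 fold change of 1.27 (SE 0.16, edgeR adjusted p = 0.00106). Bach2, a repressor that pairs with small MAF proteins, had the largest rise, 1.31 (SE 0.21, edgeR adjusted p = 0.00275).

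Of 39 other immediate early genes tested, 7 rose, 8 fell and 24 did not pass, with a median log2 fold change of 0.03. Their called share was near the 41.4% of all genes. Ppp1r15a and Nr4a1, the most abundant on average over all mice, were at 2284 ± 179 and 2122 ± 276 CPM (SD, n = 3, VA-free) and 2621 ± 504 and 2541 ± 140 CPM (SD, n = 2, CTRL), with overlap between libraries. Ier5, a relative of Ier2, rose by 1.58 (SE 0.16, edgeR adjusted p = 0.000537) and Socs3, the feedback inhibitor of STAT3 signalling, by 1.27 (SE 0.21, adjusted p = 0.00331). Socs3 was at 137 CPM in CTRL 2A and at up to 821 CPM in the other CTRL libraries. Errfi1, an inhibitor of the EGF receptor, was at 2323 ± 430 CPM against 1422 ± 20.7 CPM and rose by 0.71 (SE 0.18, edgeR adjusted p = 0.018). Gadd45g fell by 1.90 (SE 0.13, edgeR adjusted p = 0.000236) with no overlap, and Klf2, which endothelial cells express strongly, fell by 1.96 (SE 0.39, adjusted p = 0.00739) but was at 81.7 CPM in CTRL 2A, below the 90.7 to 101 CPM of the VA-free libraries. The count of 15 was 5 without CTRL 2B and 9 without VA-free 3.

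Of 25 kinases and transcription factors upstream of these genes, 12 rose, 2 fell and 11 did not pass, beside 18.9% of all genes called higher and 22.5% called lower. Their median log2 fold change was 0.30, and the list as a whole was not tested. Srf and its cofactor Mrtfa, the SRF partners Elk1 and Elk4, the p38 kinase gene Mapk14 and its activator Map2k3 were among those that rose. Elk1 was at 18.9 ± 1.69 CPM (SD, n = 3) against 6.97 ± 0.722 CPM (SD, n = 2), and Mef2d, a MEF2 factor, at 129 ± 4.51 against 56.2 ± 22.2 CPM. Stat3 was the most abundant, at 896 ± 144 against 574 ± 70.1 CPM, and rose by 0.64 (SE 0.17, edgeR adjusted p = 0.0236). Rps6ka1 fell by 2.29 (SE 0.30, edgeR adjusted p = 0.00143) and Elk3, an ETS factor with high expression in endothelial cells, fell by 1.72 (SE 0.26, adjusted p = 0.00218).

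The MAP kinase phosphatases switch the pathway off and are themselves induced by it. Of 10 such genes, 1 rose, 2 fell and 7 did not pass, a share not far from the 41.4% of all genes called. Dusp1 was at 1243 ± 119 CPM (SD, n = 3) against 2170 ± 226 CPM (SD, n = 2) and fell by 0.80 (SE 0.14, edgeR adjusted p = 0.00396). Its value in CTRL 2A, 3732 CPM, was far above the other CTRL libraries, and the lowest CTRL library, at 1230 CPM, lay among the VA-free libraries at 1061 to 1344 CPM. Dusp2 was at 6.47 ± 0.895 CPM against 18.3 ± 7.38 CPM and also fell (edgeR adjusted p = 0.00518), with CTRL 2A lowest of all libraries at 0.977 CPM. Dusp8, a phosphatase of JNK and p38, rose by 1.36 (SE 0.14, edgeR adjusted p = 0.000589), from 37.6 ± 6.02 to 96.4 ± 4.94 CPM.

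**Figure D5:**
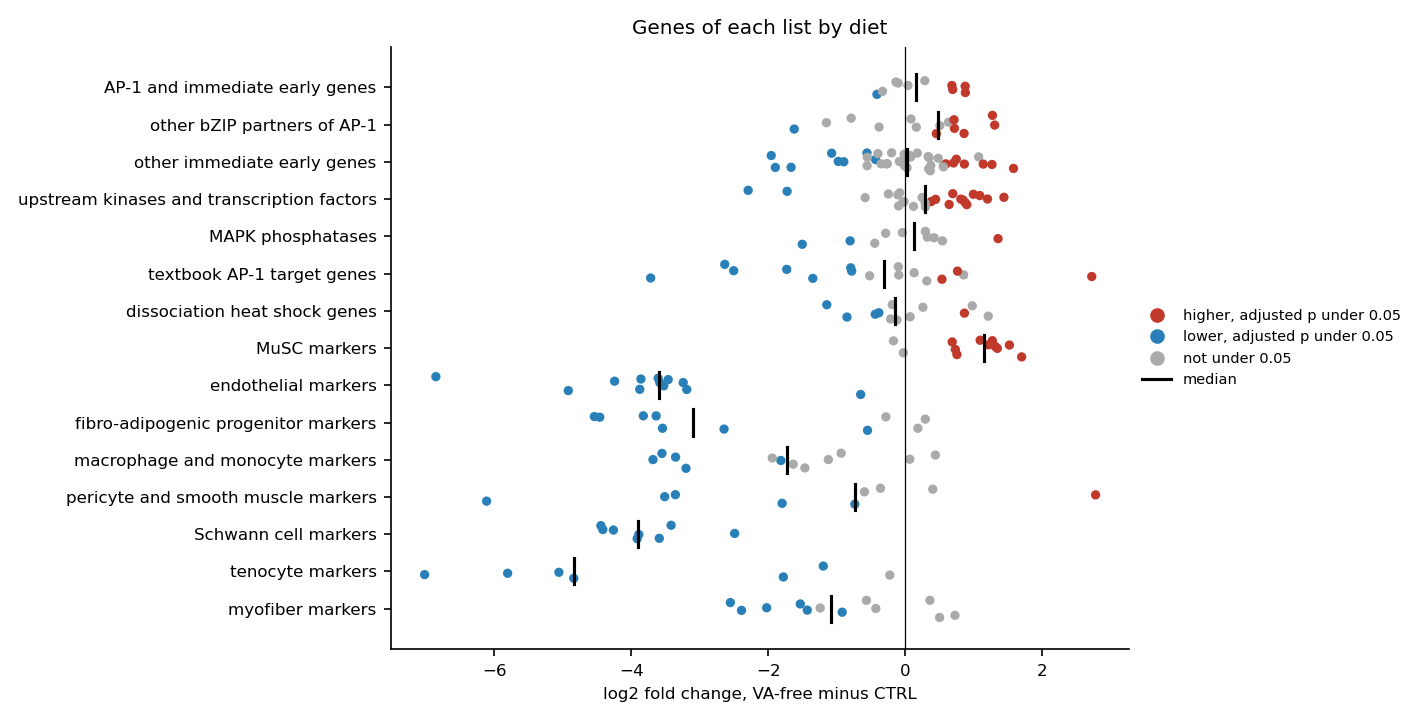
Log2 fold change, VA-free minus CTRL (x axis), of every tested gene of each list (points, red where higher and blue where lower at an edgeR adjusted p under 0.05, grey otherwise), with the median of the list (black line). The 10 AP-1 and immediate early genes spread from -0.41 to 0.88 around a median of 0.16, whereas endothelial, Schwann cell and tenocyte markers lie far to the left, with medians of -3.60, -3.90 and -4.84.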

How the data were processed

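RNA-Seq was measured in 8 libraries of sorted MuSCs from 5 mice. The authors made the estimated counts with kallisto 0.46.2 from 75 bp single-end reads against the GRCm38 transcripts of Ensembl 96, and deposited them per transcript without normalization. The TPM values that the authors deposited beside them divide by effective length and keep no depth. For the diet comparison the study used tximport with DESeq2.

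Estimated counts were added per gene through GENCODE M21 (the same release as Ensembl 96, 116816 of 118489 transcripts), which omitted 0.647% to 0.756% of a library, then added over libraries A and B of a mouse and rounded. Levels are TMM-normalized CPM, scaled separately for mice and libraries. The diets were compared over the 17997 genes that passed the edgeR filter with edgeR 4.0.16 (R 4.3.3, quasi-likelihood, Benjamini-Hochberg, threshold 0.05), which was tested on simulated data, and the standard error is the fold change divided by the square root of F. The 23 alternatives were other normalizations, filters, tools (DESeq2 1.42.0, limma 3.58.1), replicate units, length corrections, limma on log2(TPM + 1) or log2(TPM + 0.1), a replicate block, and leave-one-out fits over mice and libraries. With CTRL 1 or CTRL 2 left out, the lone mouse is assumed to vary like the other diet. Coordinates are GRCm38 and promoters are from RefSeq (GRCm38.p6, 7 of the 10 genes matched). Motifs were chosen by hand.

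The 10 genes and the other lists were chosen with earlier results of these data known. The text names, beside the 10 genes, the 4 most abundant genes of a list or those among them that a statement needs, its 2 largest rises and falls at or above 1 CPM on average, and the 5 genes most like Fos. Other genes are named only as members of a count. A result that this choice would name is left out here. Libraries A and B of a mouse are technical replicates.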

Additional observations from a re-analysis of the deposited data

Results flagged for a closer look

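In each diet, the highest and the lowest of the 4 libraries were compared with the nearest other library, as the gap divided by the whole range of log2(CPM + 1), and set against Dixon's 95% limit. Of 20 groups of 4 libraries, 4 were past it. Chance alone gives about 1 in 20, and libraries A and B of a mouse are not independent, so the limit is only a guide. Fosl1 in VA-free 1B was low (71.5 CPM against 113 to 122 CPM, gap 0.868). Atf3 in VA-free 2A was high (1521 CPM against 1306 to 1337 CPM, gap 0.847). In CTRL 2A, Junb was low (2603 CPM against 3727 to 3905 CPM, gap 0.885), and so was Egr1 (2744 CPM against 5051 to 5684 CPM, gap 0.838).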

How the results depend on the processing

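Fosb, Fosl1, Fosl2 and Egr1 kept their direction in all 23 alternatives and passed the threshold in 20, 18, 15 and 15 of them, and Fos passed in 11. The count of 5 genes called was 2 with 1 library per mouse and 3 without the gene length trend, and 0 to 5 when a mouse or library was left out. The genes called also changed between fits. They were Fosl1 and Fosl2 with 1 library per mouse, and Fosb and Fosl1 (higher) and Jun (lower) without the gene length trend. The count of 15 other immediate early genes was 4 and 8 in the same 2 fits and 5 to 20 when a mouse or library was left out. On the TPM scale 68.7% of the genes called were higher, against 45.6% on counts, and the 5 of the 10 genes called were all higher, as were 19 of 22 other immediate early genes called. The values that changed sign there were those of Fos (0.0015), Jun (0.31), Ier2 (0.11) and Atf3 (0.39, or 0.40 with a pseudocount of 0.1), before the shift of all genes by 0.19 (0.35 with a pseudocount of 0.1), and relative to that shift Fos and Ier2 were below 0 at both pseudocounts (-0.19 and -0.08, -0.35 and -0.24). Atf3 was 0.07 with 1 library per mouse. When a mouse or library was left out, Jun ranged from -0.33 to 0.08, Junb from -0.13 to 0.23, Jund from -0.10 to 0.81 and Atf3 from -0.50 to 0.43. All genes called were 7459, and 4476 to 7744 when a mouse or library was left out. The causes were not tested.

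Mice of the 2 diets share replicate numbers, and the labels name nothing else that pairs them. The paper used littermate controls where possible, but the litters of these mice are not given, so pairing by litter was not tested. The deviations of mice 1 and of mice 2 from their diets' means correlated at -0.0652 and 0.0111 over genes. With the replicate block, 3 of the 10 genes (Fosb, Fosl1 and Fosl2), 8 other immediate early genes and 5242 of all genes were called.

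With 2 control mice, the spread on that diet rests on 1 difference between animals, and CTRL 2A differed from CTRL 2B by more than other technical pairs. Each of the 10 genes had at least 2412 estimated counts in a library.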

Other observations

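Of 16 genes tested that textbooks list as AP-1 targets, 3 rose (Lif, Cd44 and Vegfa) and 7 fell, beside 18.9% and 22.5% of all genes, with a median log2 fold change of -0.31. Lif, a cytokine, had the largest rise, from 0.732 ± 0.199 CPM (SD, n = 2) to 4.84 ± 2.13 CPM (SD, n = 3), 2.72 on the log2 scale (SE 0.50, edgeR adjusted p = 0.00511). Its CTRL libraries ranged from 0 to 1.65 CPM, with CTRL 2A at 0.0705 CPM, and its VA-free libraries from 2.58 to 6.66 CPM. Il6, another cytokine, was at 16.8 ± 6.30 CPM (SD, n = 3) against 94.9 ± 41.8 CPM (SD, n = 2), with no overlap between libraries, and Ptgs2, the inducible cyclooxygenase, at 1.40 ± 0.636 against 8.61 ± 2.43 CPM. Cd44, a hyaluronan receptor, was at 107 ± 2.22 against 62.8 ± 1.62 CPM and rose by 0.76 (SE 0.10, edgeR adjusted p = 0.00152). Ccnd1 and Plaur, the most abundant, did not pass and overlapped between the diets. Stromal and immune cells also express several of these genes, and the part of such cells in these values was not tested.

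Heat shock genes known to be induced by tissue dissociation gave 1 rise (Hsph1), 4 falls and 7 that did not pass, of 12, near the 41.4% of all genes called, with a median log2 fold change of -0.16. Hspb1 fell by 1.15 (SE 0.34, edgeR adjusted p = 0.0346), from 359 ± 212 to 162 ± 28.1 CPM with overlap between libraries, and Hspe1 fell by 0.85 (SE 0.12, edgeR adjusted p = 0.00174), from 69.4 ± 6.61 to 38.5 ± 2.03 CPM without overlap. Hspa8 and Hspa5, the most abundant, were at 5073 ± 243 and 2926 ± 338 CPM (SD, n = 3) against 5879 ± 71.3 and 3337 ± 103 CPM (SD, n = 2), with overlap between libraries and the highest values in CTRL 2A (7894 and 4481 CPM). Hspa1a, the inducible HSP70, was at 982 to 2039 CPM against 364 to 1051 CPM, with the lowest value in CTRL 2A, and did not pass (edgeR adjusted p = 0.0872).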
